A study of Mus musculus with 36 samples.

Results

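The retinoic acid receptor genes Rara, Rarb and Rarg and the retinoid X receptor genes Rxra, Rxrb and Rxrg were followed in ESC, which are mouse embryonic stem cells, and in NPC, the neural precursor cells made from them. The members were chosen by name as the complete set of both receptor families, 6 of the 51734 gene symbols in the count table, and all 6 passed the filter on low counts among 20511 genes tested. RAR proteins bind retinoic acid, a derivative of vitamin A, and act on DNA as heterodimers with RXR proteins at pairs of short repeated half-sites. Without ligand the pair holds corepressors, and with ligand it exchanges them for coactivators. Retinoic acid is widely used to drive pluripotent cells toward neural fates, and RXR also serves as the partner of other nuclear receptors.

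The study asked what the methyltransferase activity of MLL3 and MLL4, which act on histone H3K4, does for gene expression, and its second set of libraries added MLL2, a related enzyme. E14 is an established mouse ESC line. From each of 6 groups 3 libraries were used, which were wild type (WT), MLL3/4 dCD (both enzymes without catalytic activity, called dCD below) and MLL2 dTAG (MLL2 fused to a degron, called MLL2dTAG below), each as ESC and as NPC. The labels give dTAG-13, a compound that sends the degron-tagged protein for degradation, as a treatment of all 6 groups, WT and ESC included, and they add retinoic acid (RA) for the 3 NPC groups. During NPC differentiation dTAG-13 was given at 2 µM starting on day 1, with harvest on day 4; no source used here gives its dose or duration in ESC. No comparison therefore isolates dTAG-13, and exposure to retinoic acid and differentiation cannot be told apart. Each genotype is a line of its own, so an edit and a difference between lines cannot be told apart, and whether a line is 1 clone was not given. The labels do not say whether the 3 replicates were separate cultures, so p-values measure the spread between these libraries, which may be technical.

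The shallowest library, WT ESC replicate 1, held 19430860 counts and the deepest, MLL2dTAG NPC replicate 2, held 46041277. Levels are in CPM, counts of a gene per 1000000 counts of its library after scaling with TMM factors, and 3 counts, the floor used for a count of 0, were 0.0662 to 0.160 CPM. Changes are log2 fold changes with their standard error (SE) from edgeR's quasi-likelihood test, and a gene was called at a Benjamini-Hochberg adjusted p under 0.05 over all genes tested. The summed level of 8 pluripotency markers was 2728 to 2879 CPM in WT ESC, 43.3 to 43.8 CPM in WT NPC, 66.9 to 72.5 CPM in dCD NPC and 168 to 170 CPM in MLL2dTAG NPC. Dppa3 had no count in any NPC group, and the other 7 markers were above 1 CPM in each. The label of neural precursors was met unevenly. Sox2 is in both the pluripotency and the neural progenitor list, so both sums include it. The 8 neural progenitor markers summed to 413 to 439 CPM in WT ESC and 465 to 469 in WT NPC, and the 6 neuron markers to 392 to 468 and 255 to 260.1. Of the former list, named after their values were seen, Pax6 was 38.9 ± 1.16 CPM in WT NPC against 1.75 ± 0.613 in WT ESC, whereas Sox1 was 3.10 ± 0.240 and 3.05 ± 0.460 CPM (mean ± SD, n = 3, as throughout). The 6 endoderm markers summed to 210 to 219 CPM in WT NPC, 182 to 188 in dCD NPC and 529 to 546 in MLL2dTAG NPC, and 5 mesenchyme markers to 538 to 558, 712 to 786 and 1013 to 1026 CPM. In such bulk samples, fewer cells of a type and less RNA per cell cannot be told apart.

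Rara, on chromosome 11, encodes RARα, the broadly expressed member of its family. In ESC it was 51.1, 57.6 and 52.4 CPM in WT, 48.8, 44.6 and 48.5 CPM in dCD, and 63.5, 67.5 and 66.1 CPM in MLL2dTAG. In NPC it was 67.4, 73.5 and 71.6 CPM in WT, 103, 86.1 and 93.8 CPM in dCD, and 67.7, 72.1 and 68.9 CPM in MLL2dTAG. The order was dCD ESC, WT ESC, MLL2dTAG ESC, MLL2dTAG NPC, WT NPC and dCD NPC. The only neighbours in this order whose libraries overlapped were MLL2dTAG and WT as NPC. MLL2dTAG ESC and WT NPC, which are not neighbours, also overlapped (highest 67.5 and lowest 67.4 CPM). The dCD line thus held both the lowest and the highest mean, 47.3 ± 2.38 CPM as ESC and 94.1 ± 8.21 CPM as NPC. Against WT, Rara fell by 0.19 (SE 0.06) in dCD ESC and rose by 0.41 (SE 0.05) in dCD NPC. The fall in ESC had an adjusted p of 0.00787 by edgeR and was not past the threshold without WT replicate 2 (−0.13, adjusted p 0.0756) or without dCD replicate 2 (−0.14, adjusted p 0.0701). In MLL2dTAG, Rara rose by 0.29 (SE 0.06) in ESC and differed by −0.03 (SE 0.05) from WT in NPC, an edgeR adjusted p of 0.688.

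Rarb, on chromosome 14, encodes RARβ and is a textbook target of retinoic acid: its promoter near the start carries a pair of half-sites spaced by 5 bases (DR5) to which RAR and RXR bind. The promoter windows that RefSeq gives for GRCm38.p6, from 250 bases before to 50 after each start, were searched on both strands for 2 half-sites in the same direction, each being AGGTCA or one of its variants AGTTCA and GGTTCA as well as GGGTCA, spaced by 1, 2 or 5 bases (DR1, DR2, DR5; matches at different spacings were counted separately). All 6 members had windows, 13 in all. The single Rarb window held a DR5 match, no other member's window held any of the 3 patterns, and DR5 was present in 31 of 27025 genes (0.115%), DR1 in 0.263% and DR2 in 0.311%. Of the 67 genes in the members and lists used below, 53 had windows, and besides Rarb only Cyp26a1, which encodes an enzyme that breaks down retinoic acid, held one, on the other strand. The bases just before both starts are shown because these are the 2 retinoid genes with a match, and the half-sites are in capitals. For Rarb they are at chr14:16575477-16575596 on the minus strand, with the match 53 to 37 bases before the start, and for Cyp26a1 at chr19:37697688-37697807 on the plus strand, with the match 32 to 16 bases before it.
Rarb: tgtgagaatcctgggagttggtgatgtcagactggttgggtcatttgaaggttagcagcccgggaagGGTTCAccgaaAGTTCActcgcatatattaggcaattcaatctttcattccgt
Cyp26a1: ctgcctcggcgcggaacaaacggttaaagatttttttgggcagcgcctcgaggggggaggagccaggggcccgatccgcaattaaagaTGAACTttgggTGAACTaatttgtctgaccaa
A match describes the letters of the window and not a bound site, and the absence of a match says nothing about binding elsewhere in a gene.

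In ESC, Rarb was near the limit of detection, with 14, 7 and 8 counts in WT (0.745, 0.232 and 0.272 CPM), 26, 22 and 19 counts in dCD (1.11, 0.911 and 0.708 CPM) and 33, 40 and 42 counts in MLL2dTAG (1.21, 1.24 and 1.10 CPM). In NPC it was 227, 230 and 221 CPM in WT, 250, 256 and 253 CPM in dCD, and 246, 253 and 247 CPM in MLL2dTAG. All 9 NPC libraries were thus far above all 9 ESC libraries, while within ESC the highest WT library exceeded the lowest dCD library. From ESC to NPC, Rarb rose by 9.24 (SE 0.09) in WT, 8.13 (SE 0.08) in dCD and 7.72 (SE 0.07) in MLL2dTAG, and in WT its change ranked 86 by size among the 20511 genes. The smaller rises in the edited lines go with their ESC levels, which were higher than in WT by 1.27 (SE 0.29) in dCD and by 1.66 (SE 0.26) in MLL2dTAG. These differences rest on 29 counts in WT ESC, and leaving out single libraries moved them between 0.98 and 1.82 and between 1.36 and 2.21. In NPC the edited lines were higher by 0.16 (SE 0.04) and 0.14 (SE 0.04), and the latter was 0.047 (adjusted p 0.314, edgeR) with upper-quartile scaling and 0.10 (adjusted p 0.0537) without a filter on low counts.

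The exons of Rarb overlap those of Top2b, a topoisomerase gene on the opposite strand, over 1793 bases in GENCODE M21. The libraries were made with a stranded kit, but no source used here gives the strand setting of the counting, so reads of both genes may not be fully separated. Top2b was 164 ± 2.28, 185 ± 2.65 and 254 ± 8.69 CPM in WT, dCD and MLL2dTAG ESC, and rose there by 0.18 (SE 0.03) and 0.63 (SE 0.03) against WT. It was 397 ± 9.60, 408 ± 7.44 and 429 ± 3.88 CPM in the same lines as NPC. By their means both genes thus had the same order of lines in ESC. For Rarb, however, the dCD libraries overlapped those of WT and of MLL2dTAG. Its difference between dCD and MLL2dTAG ESC was not called (−0.38, edgeR adjusted p 0.142). The part of Top2b reads in the ESC level of Rarb was not tested.

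Cyp26a1, the other gene with a DR5 match, was followed beside Rarb. In ESC it was 2.94 ± 0.120 CPM in WT, 1.66 ± 0.199 in dCD and 0.892 ± 0.237 in MLL2dTAG, and it fell by 0.83 (SE 0.15) and 1.72 (SE 0.16), whereas Rarb rose in both lines. In NPC it was 135 ± 3.92 CPM in WT, 102 ± 3.16 in dCD and 251 ± 10.2 in MLL2dTAG, a fall of 0.41 (SE 0.04) in dCD and a rise of 0.90 (SE 0.04) in MLL2dTAG. By these estimates the 2 genes moved in opposite directions in both ESC comparisons and in dCD NPC, and in the same direction in MLL2dTAG NPC. The Rarb rises in ESC rest on 29 counts in WT. Its rise in MLL2dTAG NPC was not called with upper-quartile scaling or without a filter on low counts.

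**Figure D1:**
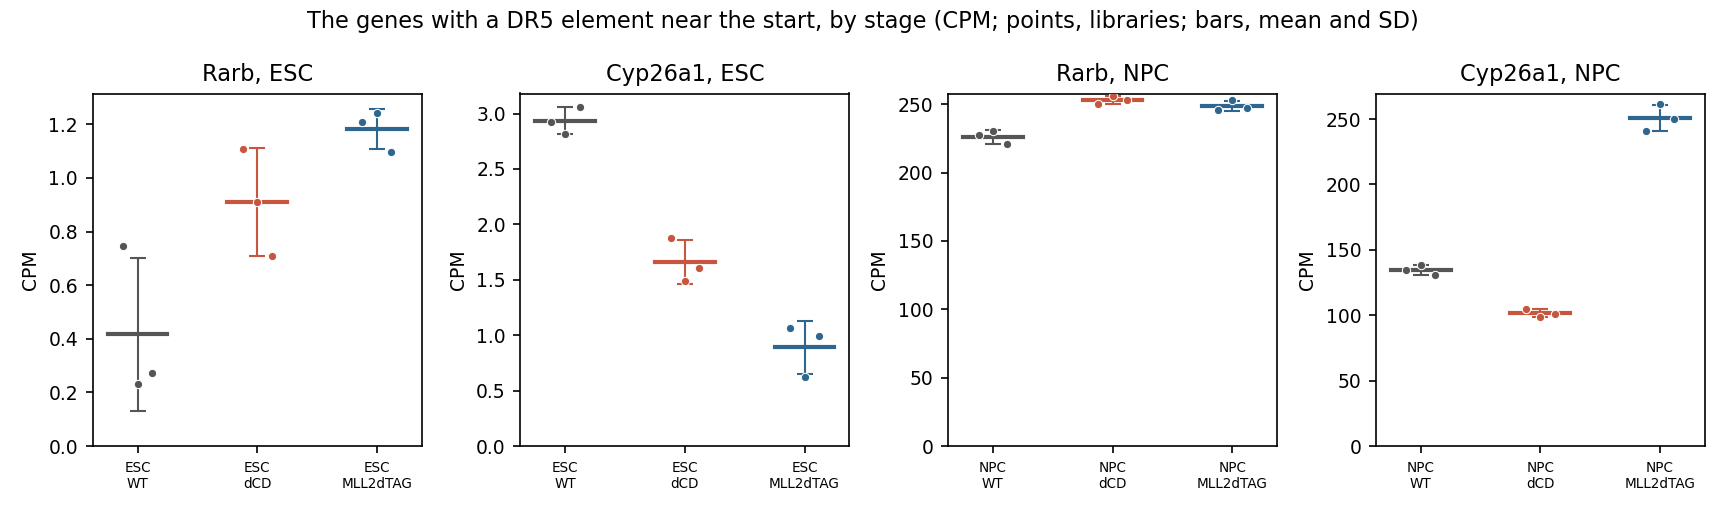
Level of Rarb and of Cyp26a1 (y axes, CPM, linear from 0 with a scale per panel) in ESC and in NPC of the 3 lines (x axes); points are libraries, bars the mean and SD of 3. In ESC the order of the means for Rarb (WT lowest, MLL2dTAG highest) is the reverse of that for Cyp26a1. For Rarb the dCD ESC libraries overlap those of both other lines. In NPC Cyp26a1 is lowest in dCD at 102 CPM and highest in MLL2dTAG at 251 CPM.

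Rarg, on chromosome 15, encodes RARγ, the receptor long associated with undifferentiated and early embryonic cells. In ESC it was 102, 105 and 105 CPM in WT, 141, 137 and 141 CPM in dCD, and 188, 180 and 176 CPM in MLL2dTAG. As NPC the values were 37.0, 39.2 and 38.3 CPM in WT, 65.4, 58.5 and 57.5 CPM in dCD, and 27.6, 29.3 and 28.5 CPM in MLL2dTAG. No 2 of the 6 groups overlapped, and MLL2dTAG held both the highest group, as ESC, and the lowest, as NPC. Against WT, Rarg rose by 0.42 (SE 0.04) in dCD ESC, by 0.80 (SE 0.04) in MLL2dTAG ESC and by 0.66 (SE 0.05) in dCD NPC, and fell by 0.42 (SE 0.05) in MLL2dTAG NPC. From ESC to NPC it fell by 1.44 (SE 0.05) in WT, by 1.21 (SE 0.04) in dCD and by 2.67 (SE 0.05) in MLL2dTAG.

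Rxra, on chromosome 2, encodes RXRα. In ESC it was 19.7, 21.9 and 23.2 CPM in WT, 32.4, 36.2 and 34.6 CPM in dCD, and 32.9, 33.8 and 32.2 CPM in MLL2dTAG. NPC libraries had 71.6, 80.9 and 71.2 CPM in WT, 61.7, 59.8 and 61.8 CPM in dCD, and 74.4, 75.4 and 74.5 CPM in MLL2dTAG. Every NPC library was above every ESC library; both edited lines were above WT as ESC, and only dCD was below WT as NPC. The changes against WT were 0.66 (SE 0.06) in dCD ESC, 0.60 (SE 0.06) in MLL2dTAG ESC and −0.29 (SE 0.05) in dCD NPC, all called, and 0.00 (SE 0.05; edgeR adjusted p 0.953) in MLL2dTAG NPC. Rxra rose from ESC to NPC by 1.78 (SE 0.06) in WT, 0.83 (SE 0.06) in dCD and 1.18 (SE 0.05) in MLL2dTAG.

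Rxrb, on chromosome 17, encodes RXRβ and was the steadiest member. In ESC it was 64.6, 64.0 and 64.2 CPM in WT, 63.4, 62.5 and 64.4 CPM in dCD, and 68.1, 68.9 and 66.6 CPM in MLL2dTAG. Levels in NPC were 91.1, 94.3 and 88.6 CPM in WT, 71.3, 66.4 and 63.7 CPM in dCD, and 76.2, 77.8 and 78.0 CPM in MLL2dTAG. The dCD NPC libraries overlapped those of all 3 ESC groups, and the highest group mean was 1.44 times the lowest. Rxrb was not called in either edited line as ESC (−0.02, SE 0.04, and 0.08, SE 0.04), and in NPC it fell by 0.44 (SE 0.04) in dCD and by 0.24 (SE 0.04) in MLL2dTAG. The rise from ESC to NPC was 0.51 (SE 0.04) in WT and 0.19 (SE 0.04) in MLL2dTAG, and 0.08 (SE 0.04; edgeR adjusted p 0.085) in dCD. With offsets for GC content and length, applied together, the change was 0.15 in WT and 0.0081 (edgeR adjusted p 0.848) in MLL2dTAG. In dCD it was then a called fall, at −0.30 (edgeR adjusted p 3.66e-09).

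Rxrg, on chromosome 1, encodes RXRγ and was close to the limit of detection. In ESC it had 30, 38 and 48 counts in WT (1.60, 1.26 and 1.63 CPM), 55, 42 and 50 counts in dCD (2.35, 1.74 and 1.86 CPM), and 32, 46 and 81 counts in MLL2dTAG (1.17, 1.43 and 2.11 CPM). In NPC it had 10, 17 and 10 counts in WT (0.317, 0.453 and 0.279 CPM), 2, 10 and 4 counts in dCD (0.0613, 0.276 and 0.117 CPM), and 0, 2 and 0 counts in MLL2dTAG. All NPC libraries were below all ESC libraries, and within NPC the WT libraries were above those of MLL2dTAG. The dCD and MLL2dTAG NPC libraries were not separated, since 2 counts occurred in both groups and the floor of the MLL2dTAG libraries without a count was 0.0890 and 0.0783 CPM. The fall from WT ESC to WT NPC was 2.07 (SE 0.37). Within NPC, MLL2dTAG was lower than WT (edgeR adjusted p 1.26e-05), and the 37 counts of WT against 2 give a ratio of 20.7 with an exact 95% interval of 5.33 to 177, which covers counting error only. Rxrg passed the low-count filter, which ran over all 18 libraries, through its ESC counts. In the fit of dCD and WT NPC alone it did not pass and had no value. The dCD line differed from WT in NPC by −1.16 (SE 0.51, edgeR adjusted p 0.052). With DESeq2 on the same filtered genes it was called (−1.17, adjusted p 0.0366). It was also called without WT replicate 3 (−1.31, adjusted p 0.0479) and without dCD replicate 2 (−1.92, adjusted p 0.0104). Over the fits with 1 library left out it ranged from −1.92 to −0.81.

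**Figure D2:**
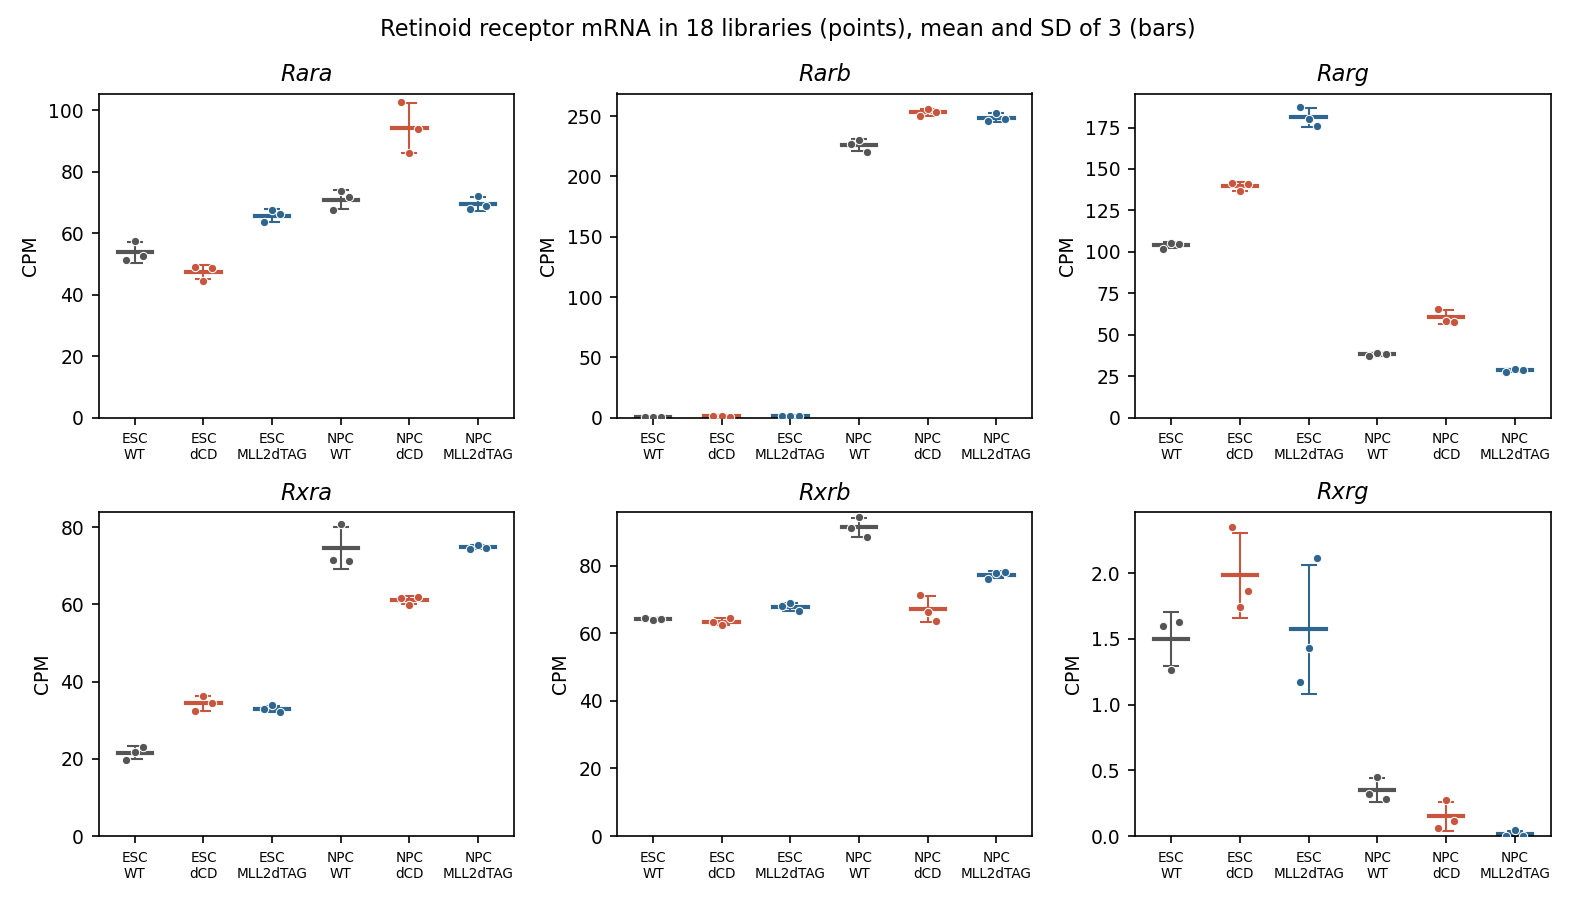
Level of each receptor gene (y axes, CPM, linear from 0 with a scale per panel) in the 6 groups (x axes); points are libraries, bars the mean and SD of 3. Rarb and Rxra are higher in all NPC than in all ESC libraries, Rarg and Rxrg lower, and Rara is lowest in dCD ESC (47.3 CPM) and highest in dCD NPC (94.1 CPM).

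Levels of different genes were set side by side only per length, as CPM per kb of exon (GENCODE M21). In WT ESC, Rarg made up 66.3% ± 1.10, Rara 33.4% ± 1.18 and Rarb 0.218% ± 0.155 of the summed RAR level per length; the Rarb share was 0.129% without WT ESC replicate 1 and up to 0.269% without another WT library. In WT NPC, Rarb made up 63.0% ± 0.987, Rara 23.8% ± 0.771 and Rarg 13.2% ± 0.222, so that the leading gene of the family passed from Rarg to Rarb while Rara stayed second. The leading RAR gene was also Rarg in both edited lines as ESC, at 74.8% ± 0.597 in dCD and 73.6% ± 1.14 in MLL2dTAG, and Rarb in both as NPC, at 57.4% ± 2.14 and 67.6% ± 0.370. Among RXR genes, Rxrb led at both stages in WT, with 77.9% ± 1.27 of the summed level in ESC and 62.5% ± 1.11 in NPC, and Rxra took 19.0% ± 1.32 and 37.1% ± 1.03. With coding length in place of exon length, Rxrb took 52.1% and Rxra 47.7% in WT NPC, so that their distance depends on the length used. In the edited lines as NPC the leading RXR gene depended on it too. By exon length Rxrb led, at 60.0% in dCD and 58.7% in MLL2dTAG. By coding length Rxra led, at 50.5% against 49.4% in dCD and 52.05% against 47.94% in MLL2dTAG.

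The summed levels per length separated the lines within each stage, except for the RAR sum of WT and MLL2dTAG as NPC. The RAR sum was 35.7 to 37.9 CPM per kb in WT ESC, 42.4 to 44.6 in dCD ESC and 56.7 to 58.8 in MLL2dTAG ESC, without overlap. In NPC it was 67.3 to 69.8 CPM per kb in WT, 82.1 to 86.4 in dCD and 68.7 to 71.4 in MLL2dTAG, and WT and MLL2dTAG overlapped. The RXR sum went the other way in dCD NPC, at 27.4 to 29.3 CPM per kb against 35.5 to 38.7 in WT and 32.8 to 33.4 in MLL2dTAG. In ESC the RXR sum was 20.6 to 21.1 CPM per kb in WT, 22.9 to 23.4 in dCD and 23.6 to 24.2 in MLL2dTAG. In dCD NPC the RAR sum was thus above, and the RXR sum below, every library of WT NPC; these sums were compared by overlap only.

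**Figure D3:**
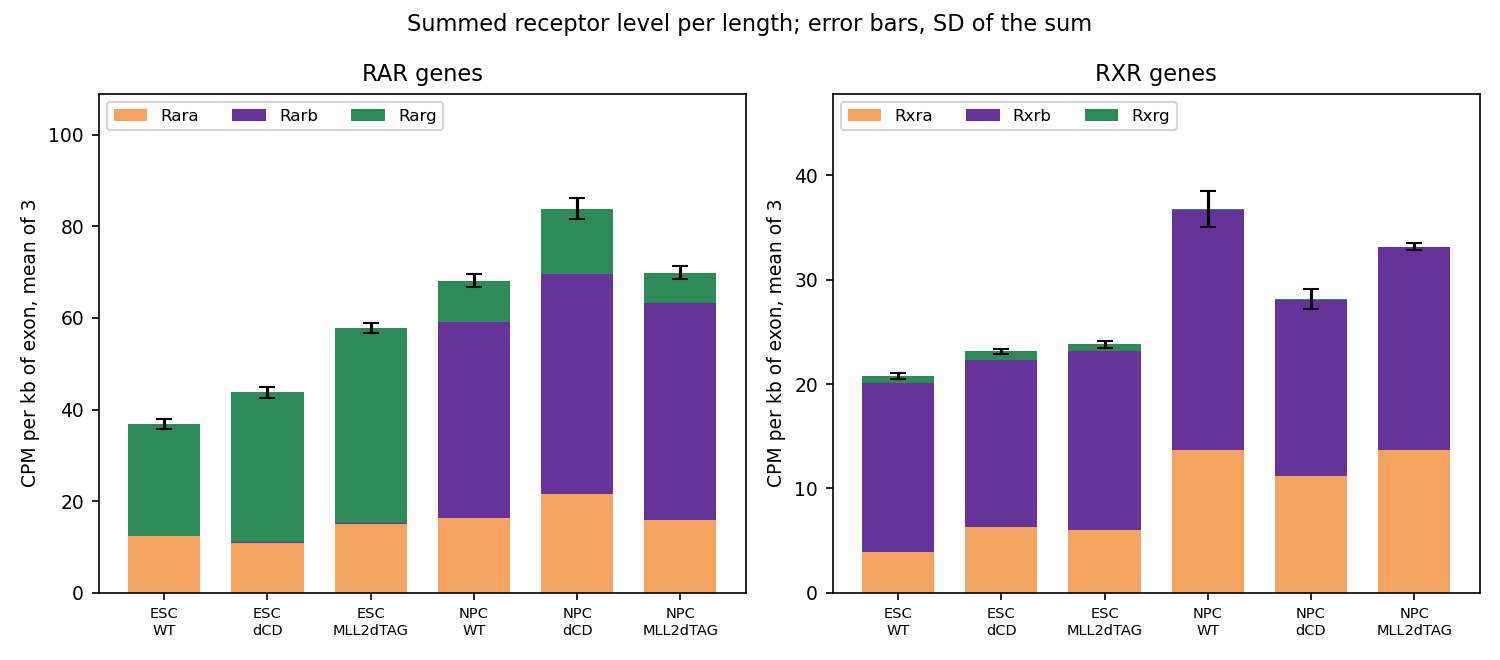
Summed level of the RAR genes (left) and RXR genes (right), in CPM per kb of exon (y axes, linear from 0), in the 6 groups (x axes); colours are the genes, bars the means of 3 libraries and error bars the SD of the sum. Rarg fills most of the RAR bar in ESC and Rarb in NPC, and in dCD NPC the RAR bar is the tallest at 83.8 while the RXR bar, at 28.2, is below the other NPC groups.

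The change from ESC to NPC was called for all 6 members in WT, 4 higher and 2 lower; of all genes tested, 79.5% were called, 39.1% higher and 40.4% lower, so a call in itself says little about the family. The median change of the members was 0.45, against −0.04 over all genes. In dCD 5 members were called, 3 higher and 2 lower, of 77.6% of all genes (38.7% higher and 39% lower), and in MLL2dTAG 5, 3 higher and 2 lower, of 78.2% (39.9% higher and 38.3% lower). The member that was not called was Rxrb in dCD and Rara in MLL2dTAG (0.08, SE 0.05; edgeR adjusted p 0.149). Offsets for GC content and length lowered the rise of Rara in WT from 0.40 (SE 0.05) to 0.16, with the call kept.

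In ESC, dCD differed from WT in 4 members, of which Rarb, Rarg and Rxra were higher and Rara was lower; 48.3% of all genes were called, 25.7% higher and 22.6% lower. In MLL2dTAG ESC 4 members were called, all higher (Rara, Rarb, Rarg and Rxra), against 56.9% of all genes, 28.7% higher and 28.2% lower. The medians over the members were 0.42 and 0.44, and over all genes 0.02 and 0.00. Both comparisons share the 3 WT ESC libraries, so they are not independent of each other. The lines were therefore also compared directly. There dCD was below MLL2dTAG for Rara (−0.47, SE 0.06) and Rarg (−0.38, SE 0.04) and was not called for the other 4; of all genes 47.2% were called, 23.7% higher and 23.4% lower in dCD. Rxra differed between the lines by 0.06 (SE 0.06), and by 0.17 (edgeR adjusted p 0.0061) with offsets for GC content and length. Under the same offsets the difference in Rarg was −0.25. Markers of other cells also differed between the ESC lines. Mesenchyme markers summed to 254 to 323 CPM in WT, 411 to 466 in dCD and 474 to 508 in MLL2dTAG, and 4 neural crest markers to 6.83 to 7.67, 12.5 to 13.3 and 18.2 to 18.5 CPM. Endoderm markers summed to 15.6 to 17.7, 11.9 to 12.7 and 30.7 to 34.4 CPM, 5 mesoderm markers to 7.72 to 8.29, 17.9 to 20.05 and 5.00 to 6.92 CPM, and pluripotency markers were highest in MLL2dTAG, at 3414 to 3526 CPM. The pluripotency sum of dCD, 2661 to 2778 CPM, overlapped that of WT, 2728 to 2879 CPM. Neural progenitor markers summed to 413 to 439 CPM in WT, 319 to 358 in dCD and 380 to 394 in MLL2dTAG. The neuron sums of the ESC lines overlapped. The part of cells with any of these markers in the receptor levels of ESC was not tested.

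In NPC, dCD had 3 members higher than WT, the 3 RAR genes, and 2 lower, Rxra and Rxrb; of all genes 53.5% were called, 26.7% higher and 26.8% lower. The RAR and RXR genes called in dCD NPC thus fell on opposite sides. In MLL2dTAG NPC 1 member was higher, Rarb, and 3 were lower, Rarg, Rxrb and Rxrg; of all genes 61.7% were called, 33.3% higher and 28.4% lower. Over the members the median change was −0.06 in dCD and −0.13 in MLL2dTAG, against −0.02 and 0.03 over all genes. These comparisons share the WT NPC libraries. Directly compared, dCD was above MLL2dTAG for Rarg (1.08, SE 0.05), Rara (0.43, SE 0.05) and Rxrg (2.93, SE 0.89), and below it for Rxra (−0.29, SE 0.05) and Rxrb (−0.20, SE 0.04); of all genes 55.9% were called, 24.3% higher and 31.6% lower in dCD. The Rxrg difference rests on 16 against 2 counts, a ratio of 9.12 with a 95% interval of 2.14 to 81.8. It was not called without dCD replicate 2 (edgeR adjusted p 0.0836). Rxrg entered this test through its ESC counts, and in the fit of those groups alone it did not pass the low-count filter. Rarb differed between the edited lines by 0.03 (SE 0.04; edgeR adjusted p 0.614), and by 0.083 (adjusted p 0.0122) in the fit of those groups alone. Beside these values stand the marker sums in NPC, of which the pluripotency and the neural progenitor sums both include Sox2. Against WT, dCD had more of the neuron markers (391 to 422 CPM), the neural progenitor markers (545 to 588) and the neural crest markers (26.7 to 27.9 against 9.92 to 10.9), more of the pluripotency and mesenchyme markers given above, and less of the endoderm and mesoderm markers (the latter 43.7 to 47.0 against 60.8 to 62.6). MLL2dTAG had higher sums of pluripotency, endoderm, mesenchyme, mesoderm (207 to 214 CPM), neural progenitor (484.5 to 492) and neural crest markers (14.5 to 15.99). The 4 trophoblast markers were lower in both, at 27.9 to 29.1 CPM in dCD and 26.5 to 28.8 in MLL2dTAG against 57.6 to 60.1 in WT. In MLL2dTAG NPC the pluripotency sum included Pou5f1 at 26.9 ± 2.08 CPM against 1.01 ± 0.234 in WT NPC and 555 ± 63.9 in WT ESC. The part of cells with these markers in the receptor levels was not tested.

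**Figure D4:**
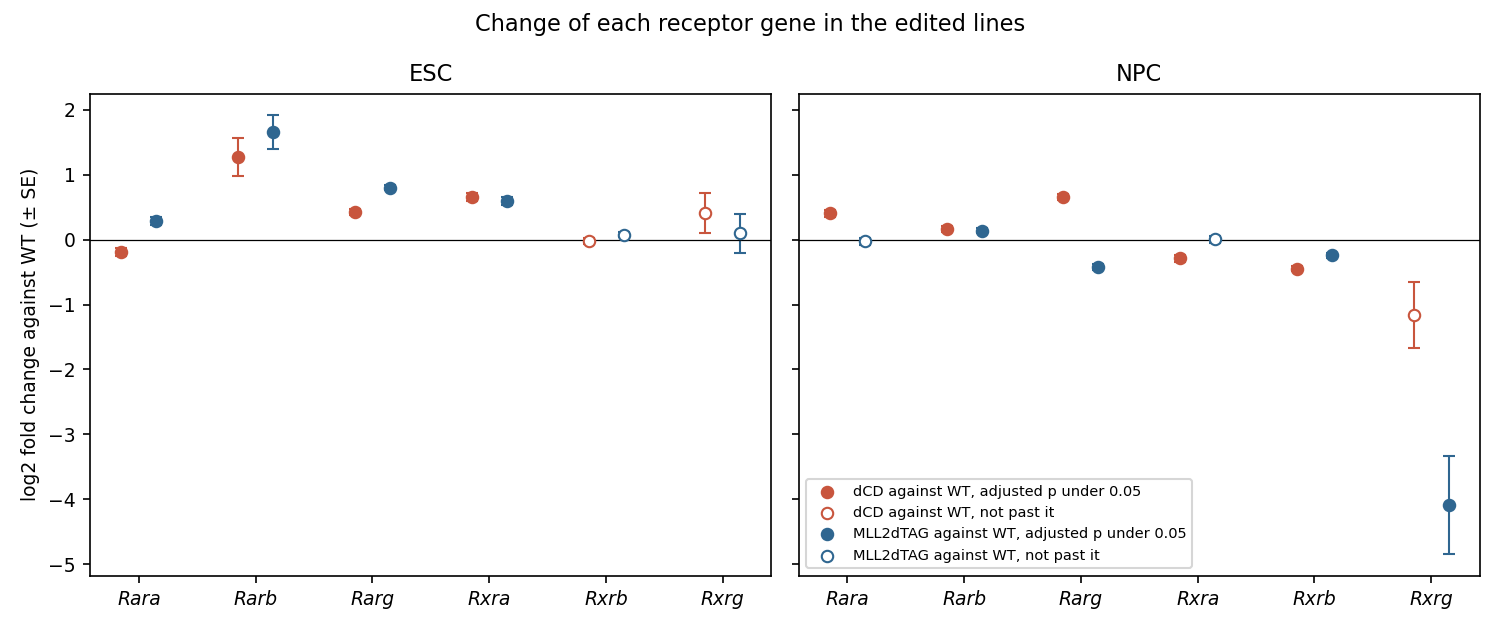
Log2 fold change of each receptor gene against WT (y axis, ± SE) in ESC (left) and NPC (right), for dCD and MLL2dTAG; filled points passed an edgeR adjusted p of 0.05 and open points did not. In dCD NPC the RAR genes lie above 0 and the RXR genes below it, and the lowest point is Rxrg in MLL2dTAG NPC, which rests on 2 counts.

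Whether a line's difference from WT changed between the stages was tested as an interaction, the NPC difference minus the ESC difference. For dCD all 6 members were called, Rara (0.59, SE 0.08) and Rarg (0.24, SE 0.06) higher in NPC and Rarb (−1.11, SE 0.29), Rxra (−0.95, SE 0.08), Rxrb (−0.43, SE 0.06) and Rxrg (−1.57, SE 0.59) lower; of all genes 42.9% were called, 20% higher and 22.9% lower. The Rxrg call (edgeR adjusted p 0.0303) was lost in 5 of 12 fits that left out 1 library. For MLL2dTAG all 6 were called lower, where 49% of all genes were called, 26.4% higher and 22.6% lower. The values were −0.31 (SE 0.08) for Rara, −1.52 (SE 0.26) for Rarb, −1.22 (SE 0.06) for Rarg, −0.60 (SE 0.08) for Rxra, −0.32 (SE 0.06) for Rxrb and −4.18 (SE 0.83) for Rxrg. With offsets for GC content and length Rara was −0.17 and Rxrb −0.15, both still called. The median over the members was −0.69 for dCD and −0.91 for MLL2dTAG, against −0.04 and 0.05 over all genes. Rarg reversed its direction between the stages in MLL2dTAG and kept it in dCD, and Rara and Rxra reversed theirs in dCD. For Rara the reversal includes its fall in dCD ESC, whose call was lost without WT replicate 2 or without dCD replicate 2.

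Other genes of the pathway were taken from 5 lists, whose counts stand against the shares of all genes tested that were higher and lower. These were 39.1% and 40.4% from WT ESC to WT NPC, 25.7% and 22.6% in dCD ESC, 28.7% and 28.2% in MLL2dTAG ESC, 26.7% and 26.8% in dCD NPC, and 33.3% and 28.4% in MLL2dTAG NPC. Of 12 retinoic acid response genes 11 rose and 1 fell from WT ESC to WT NPC, with a median of 4.97. Among the largest rises were the homeobox gene Meis2 (7.74, SE 0.07) and Stra6 (7.66, SE 0.13), which encodes a retinol transporter. In ESC 7 rose and 2 fell in dCD, led by Meis2 (2.39, SE 0.11) and its relative Meis1 (1.58, SE 0.14), and 5 rose and 3 fell in MLL2dTAG, with Meis1 at 3.04 (SE 0.11) and Meis2 at 2.85 (SE 0.10). In dCD NPC 2 rose and 8 fell, among them Tgm2, a transglutaminase gene (−1.04, SE 0.04), Stra6 (−0.84, SE 0.06) and Crabp2, which encodes a retinoic acid binding protein (−0.61, SE 0.05). The RAR genes rose in those same libraries. In MLL2dTAG NPC 5 rose and 6 fell, and Stra6 fell from 179 ± 7.86 to 54.8 ± 1.89 CPM (−1.71, SE 0.07) and Crabp2 from 83.1 ± 1.15 to 39.2 ± 1.07 CPM (−1.08, SE 0.05).

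Of 10 genes of retinoic acid synthesis, breakdown and transport, 9 rose from WT ESC to WT NPC and none fell, where 39.1% of all genes rose and 40.4% fell. Cyp26b1, an enzyme of retinoic acid breakdown, rose by 7.67 (SE 0.07) and Aldh1a2, the main enzyme of its synthesis in the early embryo, by 5.59 (SE 0.08). Aldh1a2 was 125 ± 2.27 CPM in WT NPC, 50.2 ± 2.15 in dCD NPC and 20.3 ± 0.712 in MLL2dTAG NPC, falls of 1.32 (SE 0.05) and 2.62 (SE 0.06). In all, 4 of the 10 fell and none rose in dCD NPC, where 53.5% of all genes were called and 26.8% fell, and 6 fell and 3 rose in MLL2dTAG NPC, where 28.4% fell and 33.3% rose. In ESC 1 fell in dCD, Rdh11, a retinal reductase gene (−0.42, SE 0.05), and in MLL2dTAG 5 fell and 2 rose, with Fabp5, a fatty acid and retinoic acid binding protein gene, changed most (−2.42, SE 0.08).

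Of 15 coregulators, 7 rose and 7 fell from WT ESC to WT NPC, where 79.5% of all genes were called. Nrip1, a corepressor that binds liganded receptors, rose most, from 21.9 ± 2.22 to 162 ± 4.21 CPM (2.89, SE 0.05). In ESC 5 rose and 4 fell in dCD, and 9 rose and 2 fell in MLL2dTAG, where the acetyltransferase gene Kat2b changed by 0.89 (SE 0.04). In NPC 1 rose and 6 fell in dCD, with Tbl1xr1, a corepressor subunit gene, at −0.43 (SE 0.05), and 6 rose and none fell in MLL2dTAG, with Kat2b at 0.62 (SE 0.05). Directly compared in NPC, 11 of the 15 were lower in dCD than in MLL2dTAG and none was higher, where 31.6% of all genes were lower and 24.3% higher.

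The list of nuclear receptors that pair with RXR had 10 of its 13 genes tested, of which 4 rose and 4 fell in WT NPC against WT ESC, where 79.5% of all genes were called. The thyroid hormone receptor gene Thra rose from 21.1 ± 1.67 to 87.6 ± 0.283 CPM. In NPC 6 rose and 3 fell in dCD and 3 rose and 3 fell in MLL2dTAG; Vdr, the vitamin D receptor gene, was among those that fell in both (−1.71, SE 0.17, and −2.48, SE 0.18). In ESC 1 rose and 2 fell in dCD, and 6 rose and none fell in MLL2dTAG. Of the 11 genes in the list of orphan nuclear receptors, 6 rose and 5 fell from WT ESC to WT NPC. Among them were Nr2f1 (9.44, SE 0.12) and Nr2f2 (7.82, SE 0.09), which encode COUP-TF factors, and Esrrb, a pluripotency factor gene (−8.88, SE 0.07). In dCD 3 rose and 5 fell in ESC, where 25.7% of all genes rose and 22.6% fell, and none rose and 6 fell in NPC, where 26.7% rose and 26.8% fell, with Nr2f2 at −0.62 (SE 0.05) in NPC. In MLL2dTAG 7 rose and 1 fell in ESC, and 4 rose and 4 fell in NPC, where Esrrb was 3.86 (SE 0.09) higher.

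The nearest protein-coding genes on each side were read from GENCODE M21. Itgb7, Slc39a7 and Lmx1a are given as examples, and the other neighbours are not described. Each of these examples includes a change opposite to that of its receptor gene. They do not show how often neighbours moved with or against the receptor genes. Itgb7, an integrin gene 2.99 kb from Rarg, was 22.2 ± 1.41 CPM in WT ESC and 2.18 ± 0.158 in WT NPC, and in dCD NPC it changed by −0.71 (SE 0.16) while Rarg rose. Slc39a7, a zinc transporter gene 0.129 kb from Rxrb on the opposite strand, rose by 0.28 (SE 0.08) in MLL2dTAG NPC while Rxrb fell. Lmx1a, a homeobox gene 49.6 kb from Rxrg, was 9.74 ± 0.269 CPM in WT NPC against 0.553 ± 0.269 in WT ESC, the reverse of Rxrg. Within NPC, however, it fell by 1.20 (SE 0.16) in dCD and by 2.90 (SE 0.18) in MLL2dTAG, the order of mean levels that Rxrg also had. For Rxrg, the dCD and MLL2dTAG NPC libraries were not separated.

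The genes most like each member were those with the highest Pearson r of log2 CPM over the 18 libraries among 11317 genes; libraries of a group are not independent and the stages carry much of r, so r is a description. Rarg was nearest to Bcl3, a nuclear IκB family gene (r = 0.996), which was also first by rank correlation and over the 6 group means. Bcl3 was 29.5 ± 2.44, 40.7 ± 0.744 and 52.4 ± 2.42 CPM in WT, dCD and MLL2dTAG ESC and 8.14 ± 0.679, 15.9 ± 1.27 and 5.42 ± 0.685 CPM in NPC, the same order of groups as Rarg. Next were D1Pas1 and Agpat2 (both 0.986). For Rarb the nearest were Nr2f1 (0.997), Zadh2 and Maged1 (both 0.996), for Rxra Wisp1 and Ctdsp1 (both 0.992) and Kdm2a (0.991), for Rxrb Wdr91 (0.976), Dtx2 (0.969) and Ccdc85c (0.952), and for Rara Iffo1 (0.947), Dcaf12l1 (0.943) and Dlg5 (0.942). Wdr91, an endosomal gene, was 54.0 ± 0.612 CPM in WT NPC, 35.6 ± 0.914 in dCD NPC and 43.3 ± 1.18 in MLL2dTAG NPC, the order of Rxrb. These names depend on the measure. By rank correlation 0 of the 3 were again among the nearest 3 for Rara, Rarb and Rxra, and 1 for Rarg and Rxrb; over the 6 group means it was 0 for Rarb, 1 for Rara and Rxra, and 2 for Rarg and Rxrb. Rxrg was too low for this comparison.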

How the data were processed

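The values are unnormalized read counts for each gene symbol, as deposited, and the submitters' processing notes name HTSeq for this set. Libraries were made with a stranded TruSeq mRNA kit, per the labels' protocols; no source used here gives the aligner, genome build or strand setting. Of 36 samples, 18 in 6 groups of 3 were used. A further 18 columns of per-sample values were not used here, because their names were shared by several columns or matched no label.

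Genes were filtered with filterByExpr by group, scaled with TMM (factors 0.967 to 1.05) and fitted in edgeR 4.0.16 (R 4.3.3) with 1 mean per group over all 18 libraries (12 residual degrees of freedom; biological coefficient of variation 4.01%). Quasi-likelihood F tests were two-sided with Benjamini-Hochberg adjustment over 20511 genes, of 37417 with a count. SE was taken from the change and its F statistic. The test was tested on simulated data. CPM used TMM factors. Intervals and floors cover counting error only, since reads are not independent molecules, and low counts (1 to 10) were even in 60.8% to 66.5% of cases, so counts were also halved.

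The members and lists were chosen with earlier results of these data known. The text names the 6 members; up to 4 called members of a list per comparison, by size of change, averaging 1 CPM or more; the 3 genes most like a member, averaging 5 CPM or more; and the nearest protein-coding neighbours. Cyp26a1 is also named for its promoter match, and Top2b for its overlap with Rarb. 1 result of a listed gene is not reported here. Levels of these genes are given where the comparison is described. Alternatives were other scalings (RLE, upper quartile), no filter, DESeq2 1.42.0, halved counts, only the groups compared, a replicate block, single libraries left out and, chosen after seeing the data, offsets for GC content and length. Replicates differed by more than sampling noise (chi-square 2.19 to 10.5 per degree of freedom).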

Additional observations from a re-analysis of the deposited data

Results flagged for a closer look

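The difference of an edited line from WT was called as changed between ESC and NPC for each of the 6 receptor genes, by the edgeR interaction test. Each value below is the NPC difference minus the ESC difference on the log2 scale. For dCD the values were 0.59 for Rara, −1.11 for Rarb, 0.24 for Rarg, −0.95 for Rxra, −0.43 for Rxrb and −1.57 for Rxrg. For MLL2dTAG they were −0.31 for Rara, −1.52 for Rarb, −1.22 for Rarg, −0.60 for Rxra, −0.32 for Rxrb and −4.18 for Rxrg. The values for Rarb rest on 29 counts in WT ESC and those for Rxrg on 16 and 2 counts in dCD and MLL2dTAG NPC. The dCD call of Rxrg was lost in 5 of 12 fits that left out 1 library. Of all genes tested, 42.9% were called in the dCD interaction and 49% in the MLL2dTAG interaction.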

How the results depend on the processing

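Of 66 tests of a receptor gene, the calls below changed with the processing, and the cause was not tested. With upper-quartile scaling, Rara (−0.12) became called and Rarb (0.047) was lost in MLL2dTAG against WT in NPC, Rarb (0.11) became called between the edited lines in NPC, and Rxrb (0.069) was lost in the stage change of MLL2dTAG. Without a filter, Rxrb became called in MLL2dTAG ESC (0.14), between the edited lines in ESC (−0.13) and in the stage change of dCD (0.18), and Rarb was lost in MLL2dTAG NPC (0.10). Rxrb in the stage change of dCD was also called with RLE factors (0.092) and DESeq2 (0.092), and DESeq2 called Rxrg in dCD NPC (−1.17). The fit of the groups alone called Rarb between the edited lines in NPC (0.083). In it Rxrg did not pass the filter for dCD against WT or against MLL2dTAG in NPC, so these 2 results had no value. With offsets for GC content and length, available for 96.0% of tested genes, Rxrg was called in dCD NPC (−1.21) and Rxra between the lines in ESC (0.17). Under the same offsets Rxrb in the stage change of dCD turned to a called fall (−0.30, edgeR adjusted p 3.66e-09). Its rise in the stage change of MLL2dTAG was lost (0.0081). Coding length moved the WT shares to 20.7%, 68.1% and 11.2% for Rara, Rarb and Rarg in NPC, and for Rxra, Rxrb and Rxrg to 26.8%, 71.3% and 1.88% in ESC and 47.7%, 52.1% and 0.224% in NPC.

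Leaving out 1 library changed 11 of 468 calls. The ranges were −0.22 to −0.13 for Rara in dCD ESC, −1.92 to −0.81 for Rxrg in dCD NPC, 2.17 to 5.31 for Rxrg between the edited lines in NPC, 0.039 to 0.12 for Rxrb in the stage change of dCD, and −2.33 to −1.23 for Rxrg in the dCD interaction. The last was lost without WT ESC replicate 2, dCD ESC replicate 1, WT NPC replicate 2 or dCD NPC replicate 1 or 3. Without MLL2dTAG NPC replicate 2, which holds both counts of Rxrg in its group, its change against WT was −6.47 in NPC and its interaction −6.57, fitted values against a group at 0 counts that depend on the prior count and are no bound. Replicate numbers did not pair the libraries (correlation of deviations −0.0278 to 0.0320 over 45 pairs, 0 above 0.1), and the replicate block changed no call of a receptor gene; it called 9761 genes in dCD ESC against 9909 without it. Halved counts changed none either. The lowest counts of a receptor gene were those of Rarb in ESC (7 to 42 per library) and Rxrg in NPC (0 to 17), and effects of depth were not tested.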
